A study of Mus musculus with 4 samples.

Results

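The 10 genes described here encode surface proteins that change when a T cell is activated or that hold it to other cells and to matrix. They are the activation markers Cd69, Cd44 and Tfrc, the integrin subunits Itgal, Itgb2, Itga4, Itgb1 and Itgb7, and the adhesion genes Icam1 and Selplg. They were chosen by name, and all 10 were among the 16142 genes of the deposited expression table. The study asks what happens in T cells when the ribonuclease Regnase-1, encoded by Zc3h12a, can no longer be cleaved by the protease MALT1. In the R111A mutant an alanine replaces the arginine at the cleavage site. The table holds 4 RNA-seq libraries, 2 from WT and 2 from R111A CD4+ T cells of mouse spleen, with values in FPKM, fragment numbers scaled by transcript length and library size.

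WT cells came from B6 mice with no transgene. R111A cells came from Cd4CreERT2 LSL-R111A fl/fl mice, in which a CAG promoter in the Rosa26 locus drives the mutant and an EGFP marker once tamoxifen has activated Cre in cells that use the Cd4 promoter. Tamoxifen was given at 75 mg/kg for 5 days, and the labels do not make clear whether the WT mice received it too. The study's methods and legends describe WT mice given tamoxifen in other assays, but do not say so for the sequenced cells. Cells of both groups were sorted and then kept for 12 h with antibodies to CD3 (5 µg/mL) and to CD28 (1 µg/mL), so every value below describes stimulated cells. The gate of that sort is not given for these samples. The study's general sorting method selects GFP+ cells in reporter mice and then parts CD25+ from CD25- cells, without saying which fraction was sequenced. In a longer culture with the same antibodies, the study reports that many R111A CD25- cells died by apoptosis. The share of dying cells in the sequenced samples is not given, and its part in the values below was not tested. R111A cells keep their own Zc3h12a genes, so the transgene adds an overexpressed mutant to the normal protein. Zc3h12a itself, read without separating the transgene from the normal gene, stood at 16.97 and 15.72 FPKM in WT replicates 1 and 2 and at 196.30 and 130.87 FPKM in R111A replicates 1 and 2, higher in both libraries labelled R111A.

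The CD4+ label was checked against marker genes in each of the 4 libraries. Summed over the 7 of 8 listed CD4 T cell markers in the table, the level was 1719.87 and 1724.22 FPKM in WT and 1431.88 and 1350.84 FPKM in R111A, with Cd3g the most abundant. Of the 7 tested, 1 was higher and 3 lower past an adjusted p of 0.05, where 21.2% and 32.1% of all genes were. When each library was rescaled to the same sum, 0 were higher and 6 lower, where 51.8% of all genes were lower. Cd3d, the higher gene, read 205.01 and 213.72 FPKM in WT and 275.23 and 266.87 FPKM in R111A. Cd4, which was lower, read 157.54 and 131.28 FPKM in WT and 70.69 and 51.35 FPKM in R111A. The CD8 markers Cd8a and Cd8b1 summed to 7.31 and 6.76 FPKM in WT and 3.88 and 4.46 FPKM in R111A. Nearly all of it was Cd8b1, which was lower with an adjusted p of 0.0066. That call was lost without WT replicate 1, at -0.56 on the log2 scale. Of 4 regulatory T cell markers, 2 were lower in R111A past an adjusted p of 0.05, as 32.1% of all genes tested were, with Foxp3 at 11.31 and 8.78 FPKM in WT and 2.86 and 1.86 FPKM in R111A, and Ctla4 at 38.94 and 44.32 FPKM against 8.94 and 12.03 FPKM. The other 2 did not pass, with Ikzf2 at 4.50 and 4.34 FPKM in WT and 2.35 and 4.36 FPKM in R111A and Il2ra at 140.21 and 136.12 FPKM against 127.30 and 128.61 FPKM. All 4 passed as lower after rescaling to TPM, which sets each library to the same sum, where 51.8% of all genes were lower, and 3 did without R111A replicate 2, where 39.8% were. In bulk RNA, fewer cells of a type and less RNA per cell cannot be told apart, and the part of these differences in the results below was not tested.

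CD69 appears on T cells within hours of receptor engagement and holds them in lymphoid tissue by removing the sphingosine phosphate receptor S1PR1 from the surface. CD44 binds hyaluronan and stays high on cells that have met antigen, and CD71, the product of Tfrc, brings in the iron that growing cells need. Integrins are pairs of an alpha and a beta chain: Itgal with Itgb2 makes LFA-1, whose ligand is ICAM-1, Itga4 with Itgb1 makes VLA-4, and Itga4 with Itgb7 makes the gut-homing receptor for MAdCAM-1. Transcripts of Tfrc and Cd44 are known targets of Regnase-1.

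Between R111A and WT, 6 of the 10 genes passed an adjusted p of 0.05 in limma, where 53.3% of all 9831 genes tested did. Cd69, Itga4 and Itgb7 were higher in R111A, 3 of 10 where 21.2% of all genes were higher. Cd44, Itgal and Tfrc were lower, 3 of 10 where 32.1% of all genes were lower. With a 2-fold change also required, 2 genes were called higher, Cd69 and Itga4, and 3 were called lower, against 8.52% and 8.34% of all genes. Cd69 fell short of 2-fold after rescaling to TPM, at 0.89 on the log2 scale, and without R111A replicate 2, at 0.97, and Cd44 did so with a pseudocount of 5 FPKM, at -0.97. The values of the 2 groups did not overlap for 7 of the 10 genes, and the same was true of 78.3% of all genes tested. By adjusted p alone and by overlap the shares of the 10 genes lie near the background.

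The sizes of the changes differed widely among the 10 genes. Their median change was 0.04 on the log2 scale, beside -0.12 for all genes tested, while the median size of the change regardless of sign was 1.01 beside 0.44. These fold changes are on the scale of log2(FPKM + 1), which understates the change of genes with low values. The summed FPKM of the libraries differed, at 801475 and 836143 in WT and 1053551 and 1012215 in R111A, and rescaling each library to the same sum, as TPM does, moved the median of all genes from -0.12 to -0.42. The same rescaling turned the split of called genes from 838 higher and 820 lower into 583 higher and 1749 lower. By adjusted p alone it left 13.6% of all genes higher and 51.8% lower, shares to set beside the TPM counts of lists below. Changes are therefore given below also relative to the median of all genes.

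**Figure D1:**
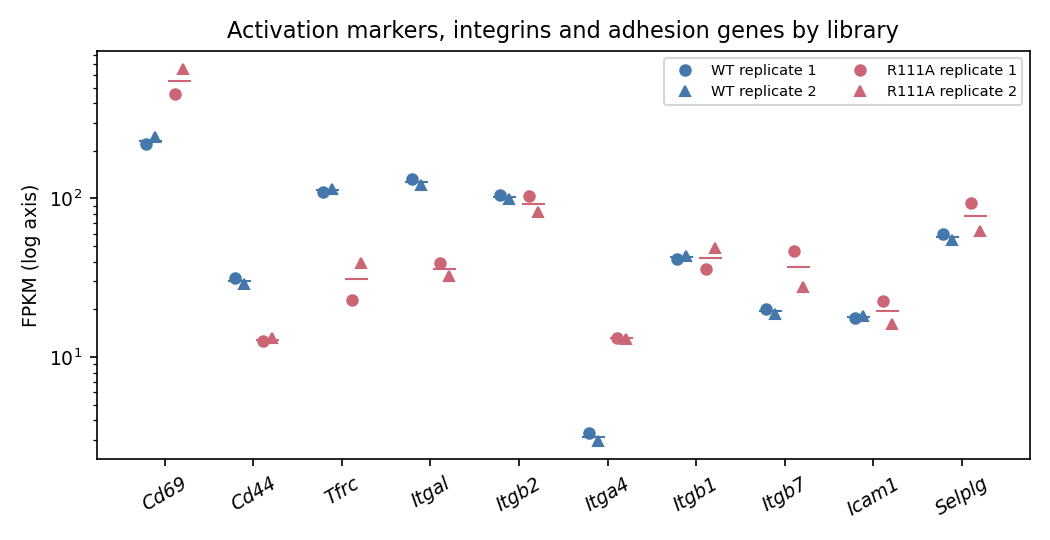
FPKM of the 10 genes in each of the 4 libraries on a log axis, with WT in blue and R111A in red, circles for replicate 1, triangles for replicate 2 and a line at each group mean. Cd69 is the highest of the 10 in each library, Itga4 is the lowest in both WT libraries at 3.33 and 2.97 FPKM, and the groups overlap for Itgb2, Itgb1 and Icam1.

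The order of the levels, compared per length in FPKM, changed between the groups. Cd69 was the most abundant of the 10 in each library. In both WT libraries Itgal came next, followed by Tfrc, Itgb2, Selplg, Itgb1, Cd44, Itgb7, Icam1 and Itga4. Of these WT neighbours, Itgb7 at 20.12 and 18.74 FPKM and Icam1 at 17.62 and 18.22 FPKM lay close together, as did Tfrc at 110.21 and 114.60 FPKM and Itgb2 at 105.07 and 99.53 FPKM. In both R111A libraries Itgb2 and Selplg followed Cd69, and Cd44 and Itga4 were the lowest 2, at 12.60 and 13.22 FPKM and at 13.31 and 12.95 FPKM, with no order between them.

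Cd69, an early marker of receptor signalling on chr6:129267324-129275375 (NCBI gene 12515), read 221.01 and 242.25 FPKM in WT and 453.84 and 651.10 FPKM in R111A. Both R111A values lay above both WT values. On the log2 scale the change was 1.23 with a standard error of 0.18, or 1.34 relative to the median of all genes, with a limma adjusted p of 0.0006. By rank among the tested genes, looked up after the values were seen, Cd69 moved from 451 and 434 in WT to 199 and 143 in R111A.

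The genes around CD69 and the exit of T cells from lymphoid tissue included several that rose with it. Of 15 listed, 11 were tested, Cd69 among them, and 6 were higher and 2 lower past an adjusted p of 0.05, where 21.2% of all genes were higher and 32.1% lower, with a median of 0.49 beside -0.12 for all genes. After rescaling to TPM 5 were higher and 4 lower. S1pr1, the receptor that CD69 binds, read 6.67 and 4.61 FPKM in WT and 43.23 and 30.78 FPKM in R111A, which is 2.51 on the log2 scale with a standard error of 0.21. Klf2, a transcription factor that promotes S1pr1 expression, read 24.70 and 20.88 FPKM in WT against 100.18 and 41.54 FPKM in R111A. The R111A libraries of Klf2 differed 2.41-fold, and its call was lost where genes with low values were kept in. S1pr4 rose from 15.99 and 17.10 FPKM to 42.02 and 32.28 FPKM. Slc3a2, the CD98 heavy chain, rose from 85.58 and 86.75 FPKM to 201.29 and 147.18 FPKM. Its light chain partner Slc7a5, with which CD69 also associates, went the other way, from 87.25 and 76.94 FPKM to 66.28 and 45.77 FPKM, and so did the sphingosine kinase Sphk2, from 15.07 and 15.81 FPKM to 12.46 and 8.78 FPKM. Both of these lower calls were lost with median-of-ratios or quantile scaling, with no filter and without WT replicate 1, and that of Sphk2 also without WT replicate 2. Myl12b, a myosin light chain, Grk2, a receptor kinase, and Sgpl1, the sphingosine phosphate lyase, were the most abundant genes that did not pass, with log2 fold changes of 0.44, -0.41 and -0.21.

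Cd44, the hyaluronan receptor on chr2:102811141-102901669 (NCBI gene 12505), read 31.42 and 28.75 FPKM in WT and 12.60 and 13.22 FPKM in R111A. Both R111A libraries were below both WT libraries, and within each group the values lay close together. Its log2 fold change was -1.16 with a standard error of 0.13, or -1.04 relative to the median, with a limma adjusted p of 0.00019. Per length Cd44 stood 2.33-fold higher in WT than in R111A.

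Genes that act with CD44 or that tie it to the actin cytoskeleton were measured beside it. Of 16 listed, 14 were in the table and 9 were tested, Cd44 among them, and 0 rose and 4 fell, against 21.2% and 32.1% of all genes, with a median of -0.24 beside -0.12. Adam10, a protease that sheds the CD44 ectodomain, fell from 48.14 and 48.44 FPKM to 17.35 and 21.15 FPKM, a log2 fold change of -1.29. Vim, the intermediate filament protein vimentin, fell from 17.66 and 15.74 FPKM to 11.64 and 6.59 FPKM, a call lost with no filter. Rdx, the linker radixin, fell from 80.10 and 75.04 FPKM to 39.79 and 52.09 FPKM. The other linkers of its family did not pass. Msn, moesin, read 170.94 and 156.29 FPKM in WT and 220.58 and 184.80 FPKM in R111A, and Ezr, ezrin, read 74.48 and 66.15 FPKM against 82.22 and 61.66 FPKM. Nf2, a related protein, had a log2 fold change of -0.24. After rescaling to TPM 0 were higher and 5 lower, where 51.8% of all genes were lower. With median-of-ratios or quantile scaling, and without R111A replicate 2, 1 gene of this list was higher, beside 24.3%, 23.6% and 25.5% of all genes.

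Tfrc, the transferrin receptor CD71, lies on chr16:32608896-32632794 (NCBI gene 22042). Its 3' untranslated region, of 2458 bases in the GENCODE vM21 transcript Tfrc-201, is the textbook case of control by iron: iron regulatory proteins bind iron-responsive elements there and protect the transcript, while the same kind of element in the 5' untranslated region of the ferritin transcripts blocks their translation. The elements are shown because both kinds of gene were measured here. They come from GENCODE vM21 transcripts on GRCm38 and were found as a C followed by a stem of 5 base pairs, G-T pairs allowed, around a loop CAGTGN that ends in any base but G. Capitals mark the loop. The Tfrc elements lie at chr16:32631221-32631246, chr16:32631600-32631625, chr16:32631665-32631690 and chr16:32631712-32631737 on the plus strand, the Fth1 element at chr19:9982734-9982759 on the plus strand and the Ftl1 element at chr7:45459780-45459805 on the minus strand. Tfrc and the ferritin genes follow, each 5' to 3'.
Tfrc element 1: ttatcggaagCAGTGCcttccataat
Tfrc element 2: ttatcgggagCAGTGTcttccataat
Tfrc element 3: atatcggagaCAGTGAtctccatatg
Tfrc element 4: ttatcgggaaCAGTGTttcccataat
Fth1 element: cctgcttcaaCAGTGCttgaacggaa
Ftl1 element: cttgcttcaaCAGTGTttgaacggaa
Of 9600 genes searched, 0.594% held a match in either untranslated region, and Tfrc was the 1 gene with 2 or more in the 3' region, with 4. The transcript searched for the iron transporter Slc11a2, whose transcripts differ in this element, held none.

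A further kind of element was searched because Regnase-1 is known to cut hairpins with a loop of a pyrimidine, a purine and a pyrimidine. The Tfrc 3' region held 1 hairpin of 6 perfect base pairs around a TAT or TGT loop, at chr16:32631250-32631264 on the plus strand of GRCm38, shortly after the first iron-responsive element. The loop is in capitals.
Tfrc hairpin: gacagtTATactgtc
Such a hairpin was present in 4.64% of the genes searched, 445 of 9600, and in 6.68% of the 584 genes whose 3' region was within 10% of the length of that of Tfrc. The rule for the arms was set after a first search that also allowed G-T pairs had been seen. The study's own screen allowed shorter stems, longer loops and any pyrimidine-purine-pyrimidine letters in the loop, and it required a GC pair. A gene without a match here may therefore still hold a site by that screen. The matches are descriptions of the letters and say nothing about binding in these cells.

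Tfrc read 110.21 and 114.60 FPKM in WT and 23.09 and 38.99 FPKM in R111A. Both R111A libraries were far below both WT libraries, although they differed 1.69-fold between themselves. On the log2 scale Tfrc changed by -1.87 with a standard error of 0.22, or -1.75 relative to the median, with a limma adjusted p of 0.0002. It was -1.5 without R111A replicate 1, the library with the lower value, and -2.23 without R111A replicate 2.

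Genes of iron uptake, storage and use were measured beside Tfrc. Of 25 listed, 20 were tested, Tfrc among them, and 3 were higher and 11 lower past an adjusted p of 0.05, where 21.2% of all genes were higher and 32.1% lower, with a median of -0.56 beside -0.12 for all genes. Slc11a2, the iron transporter DMT1, fell from 12.40 and 13.35 FPKM to 4.29 and 4.07 FPKM, a log2 fold change of -1.42 with a standard error of 0.14. Egln3, an oxygen and iron dependent hydroxylase whose transcript is a known target of Regnase-1, fell from 3.83 and 4.57 FPKM to 0.99 and 1.23 FPKM. Slc25a37, the mitochondrial iron importer, fell from 15.88 and 15.01 FPKM to 7.24 and 8.11 FPKM, and Pcbp1, an iron chaperone and RNA-binding protein, fell from 399.36 and 386.34 FPKM to 256.54 and 183.77 FPKM. Fewer genes of the list rose. Slc39a8, a metal importer, rose from 3.01 and 2.99 FPKM to 5.07 and 6.55 FPKM, and Hmox1, which frees iron from haem, rose from 3.07 and 3.66 FPKM to 5.78 and 6.83 FPKM, a call lost without WT replicate 1. Ftl1, ferritin light chain, rose from 933.31 and 873.46 FPKM to 1509.6 and 1114.2 FPKM, a call that was lost after rescaling to TPM, with no filter and without WT replicate 2. Fth1, ferritin heavy chain, read 375.99 and 370.38 FPKM in WT and 519.39 and 366.36 FPKM in R111A and did not pass, and neither did Iscu, a scaffold for iron-sulfur clusters, or Ncoa4, a receptor for ferritin breakdown, at log2 fold changes of 0.20 and 0.18. After rescaling to TPM 2 were higher and 11 lower, where 51.8% of all genes were lower, so the share of lower genes was then near that of all genes, with a median of -0.87 beside -0.42. The number of lower genes was 6 without WT replicate 2, where 19.3% of all genes were lower, and the number of higher genes was 6 without R111A replicate 1, where 25.6% were higher.

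Further surface markers of activation went in both directions. Of 20 listed, 19 were tested, Cd69, Cd44, Tfrc and Icam1 among them, and 6 were higher and 5 lower, against shares of 21.2% and 32.1% over all genes, with a median of 0.06 beside -0.12. With TPM the counts were 6 and 7. Ly6c2, 1 of the higher genes, and Cd63, which did not pass, reached the filter only through R111A. Cd9, a tetraspanin, rose from 53.97 and 52.37 FPKM to 139.33 and 164.87 FPKM, and Cd27, a costimulatory receptor, rose from 140.62 and 131.25 FPKM to 316.13 and 282.28 FPKM. Cd24a, a glycoprotein that is lower on mature than on immature T cells, rose from 7.42 and 7.59 FPKM to 14.41 and 18.47 FPKM. For each of these the lower R111A value exceeded the higher WT value. Ly6a, the marker Sca-1, fell from 277.32 and 269.96 FPKM to 148.05 and 159.17 FPKM. Cd151, a tetraspanin that binds integrins, and Cd5, an inhibitor of receptor signalling, were lower with log2 fold changes of -0.42 and -0.40, calls that were lost in several alternatives, including without either WT replicate. Il2ra, the high-affinity chain of the IL-2 receptor, read 140.21 and 136.12 FPKM in WT and 127.30 and 128.61 FPKM in R111A. It did not pass, although it did at -0.44 after rescaling to TPM and was 0.13 with quantile scaling. Cd82 at 0.06 and Ly6c1 at 0.03 did not pass either.

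**Figure D2:**
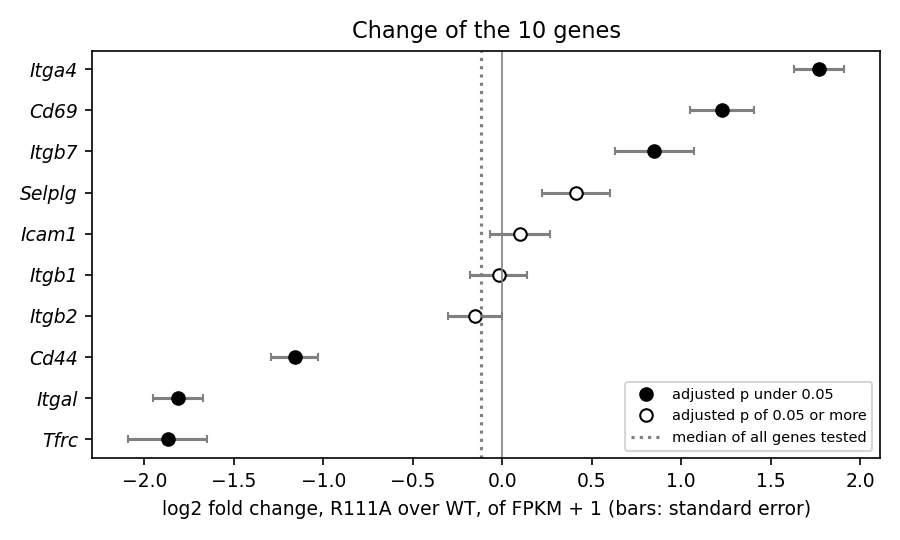
Log2 fold change of the 10 genes, R111A over WT, of FPKM + 1, with bars for the standard error, filled points for an adjusted p under 0.05 and a dotted line at the median of all genes tested, -0.12. The points run from -1.87 for Tfrc to 1.77 for Itga4, and open points mark Itgb2, Itgb1, Icam1 and Selplg, of which Itgb2, Itgb1 and Icam1 change sign under at least 1 other scaling.

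Itgal, the alpha chain of LFA-1 on chr7:127296139-127335137 (NCBI gene 16408), read 132.84 and 122.31 FPKM in WT and 39.50 and 32.31 FPKM in R111A. Both R111A libraries were below both WT libraries by a wide margin. Its log2 fold change was -1.81 with a standard error of 0.14, or -1.69 relative to the median, with a limma adjusted p of 3e-05. Itgb2, its beta partner CD18 on chr10:77530329-77565708 (NCBI gene 16414), read 105.07 and 99.53 FPKM in WT and 103.55 and 82.12 FPKM in R111A, so the groups overlapped. The log2 fold change of Itgb2 was -0.15 with a standard error of 0.15 and an adjusted p of 0.42, -0.03 relative to the median, and with quantile scaling it was 0.08. A p that misses the threshold does not show that the levels were the same. Rescaled to TPM, Itgb2 passed at an adjusted p of 0.012, the lowest of a range up to 0.87 over its alternatives, at -0.48, which was -0.06 relative to the median of all genes.

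A single scaling factor per library leaves the ratio of the LFA-1 chains unchanged. The ratio of Itgal to Itgb2 in FPKM was 1.26 and 1.23 in WT and 0.381 and 0.393 in R111A. Replicates of a group gave nearly the same ratio, and the groups lay far apart. On the log2 scale the ratio changed by -1.69, and with 2 libraries against 2 an exact two-sided permutation test gives 0.33, the smallest p this design allows.

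Itga4, the alpha chain CD49d, lies on chr2:79255426-79333114 (NCBI gene 16401), and Itgb7 on chr15:102215994-102233405 (NCBI gene 16421). Their promoters are shown because both genes rose and their products pair, and that of Tfrc because its transcript fell. RefSeq promoter sequence of GRCm38.p6 was matched for 6 of the 10 genes, with no entry for Cd69, Itgal, Itgb2 and Selplg. The windows run from -250 to -11 relative to the start that the promoter table uses, which for Itgb7 lies inside the gene span given above and for Itga4 and Tfrc is the start of the span. They lie at chr2:79255176-79255415 on the plus strand for Itga4, at chr15:102231946-102232185 on the minus strand for Itgb7 and at chr16:32608646-32608885 on the plus strand for Tfrc. Capitals mark matches on either strand to the motifs named next.
Itga4 promoter: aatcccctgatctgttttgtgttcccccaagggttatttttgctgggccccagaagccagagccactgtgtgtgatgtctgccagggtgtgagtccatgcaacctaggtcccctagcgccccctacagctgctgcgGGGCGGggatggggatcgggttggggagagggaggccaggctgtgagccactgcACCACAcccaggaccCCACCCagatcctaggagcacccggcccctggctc
Itgb7 promoter: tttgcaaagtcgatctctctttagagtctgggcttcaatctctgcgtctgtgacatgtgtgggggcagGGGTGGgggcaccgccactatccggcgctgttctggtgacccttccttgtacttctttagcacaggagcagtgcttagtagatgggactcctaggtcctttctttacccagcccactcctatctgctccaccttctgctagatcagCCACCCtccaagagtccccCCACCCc
Tfrc promoter: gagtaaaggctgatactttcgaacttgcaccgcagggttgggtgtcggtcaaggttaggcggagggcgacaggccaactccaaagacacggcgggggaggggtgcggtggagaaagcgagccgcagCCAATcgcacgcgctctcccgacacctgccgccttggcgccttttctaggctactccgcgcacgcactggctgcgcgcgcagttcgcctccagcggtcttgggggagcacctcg
In Itga4 the capitals are a GC box (GGGCGG) at -114, a RUNX motif (TGTGGT, on the other strand) at -60 and a KLF motif (CCACCC) at -45. In Itgb7 they are KLF motifs at -182, -36 and -17, and in Tfrc a CCAAT box at -124. Among the 32851 promoter windows of this length, 31.3% held the GC box, 13.6% the RUNX motif, 27.0% the KLF motif and 33.0% the CCAAT box.

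The other windows were searched for the same letters and for AP-1 (TGANTCA, in 6.58% of windows), CRE (TGACGTCA, 1.44%), the E box (CACGTG, 5.69%), the TATA box (TATAAA, 12.1%) and NF-kB. Itgb1 held a GC box at -151, Icam1 held KLF motifs at -117 and -90 and a GC box at -17, and Cd44 held no match. A 10-letter NF-kB consensus, present in 16.1% of windows, matched none of the 6. The shorter form GGANNTTCC, present in 3.39%, was chosen after the Icam1 window had been seen and matched there at -153. The printed windows were also chosen after the matches were seen. No match says only that these letters are not in the window, and binding was not measured.

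The 3' untranslated region of Itga4, of 6508 bases in the GENCODE transcript Itga4-201, met the hairpin rule used for Tfrc at 2 positions with the same letters. They lie at chr2:79329038-79329052 and chr2:79329080-79329094 on the plus strand of GRCm38, with the loop in capitals, and are shown because they met the same rule. Unlike the Tfrc hairpin, their stems hold only A-T pairs and so lack the GC pair that the study's own screen required.
Itga4 hairpin: tttaatTATattaaa
Of the 95 genes with a 3' region within 10% of that length, 15.8% held at least 1, and under this rule the other 8 of the 10 genes held none in their transcripts. Sites that only the study's own screen would accept are not covered by this search.

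Itga4 read 3.33 and 2.97 FPKM in WT and 13.31 and 12.95 FPKM in R111A. The libraries of each group lay close together and the groups were far apart, with a mean 4.17-fold higher in R111A. On the log2 scale Itga4 changed by 1.77 with a standard error of 0.14, or 1.88 relative to the median, with a limma adjusted p of 3e-05. Itgb1, the beta chain of VLA-4 on chr8:128685654-128733579 (NCBI gene 16412), read 41.65 and 43.61 FPKM in WT and 36.18 and 48.70 FPKM in R111A, with both WT values between those of R111A. Its log2 fold change was -0.02 with a standard error of 0.16 and an adjusted p of 0.92, 0.09 relative to the median, and it was 0.07 with median-of-ratios and 0.15 with quantile scaling.

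Itgb7, the beta chain that pairs with Itga4 in gut-homing cells, read 20.12 and 18.74 FPKM in WT and 46.45 and 27.71 FPKM in R111A. Both R111A values were above both WT values, but they differed 1.68-fold between themselves. The log2 fold change was 0.85 with a standard error of 0.22, or 0.97 relative to the median, with a limma adjusted p of 0.011, short of a 2-fold change. It was 0.49 without R111A replicate 1 and 1.22 without R111A replicate 2. When genes with low values were kept in the fit the adjusted p was 0.068, in a range from 1.2e-06 to 0.068 over the alternatives.

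Within a library, Itga4 was low against both of its beta partners in WT and less so in R111A. The ratio of Itga4 to Itgb1 in FPKM was 0.0800 and 0.0681 in WT and 0.368 and 0.266 in R111A, a log2 change of 2.08 with an exact permutation p of 0.33. The ratio of Itga4 to Itgb7 was 0.166 and 0.158 in WT and 0.287 and 0.467 in R111A, a log2 change of 1.18 with an exact permutation p of 0.33. Neither ratio overlapped between the groups. The change of the ratio to Itgb7 was 1.53 without R111A replicate 1 and 0.82 without R111A replicate 2.

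**Figure D3:**
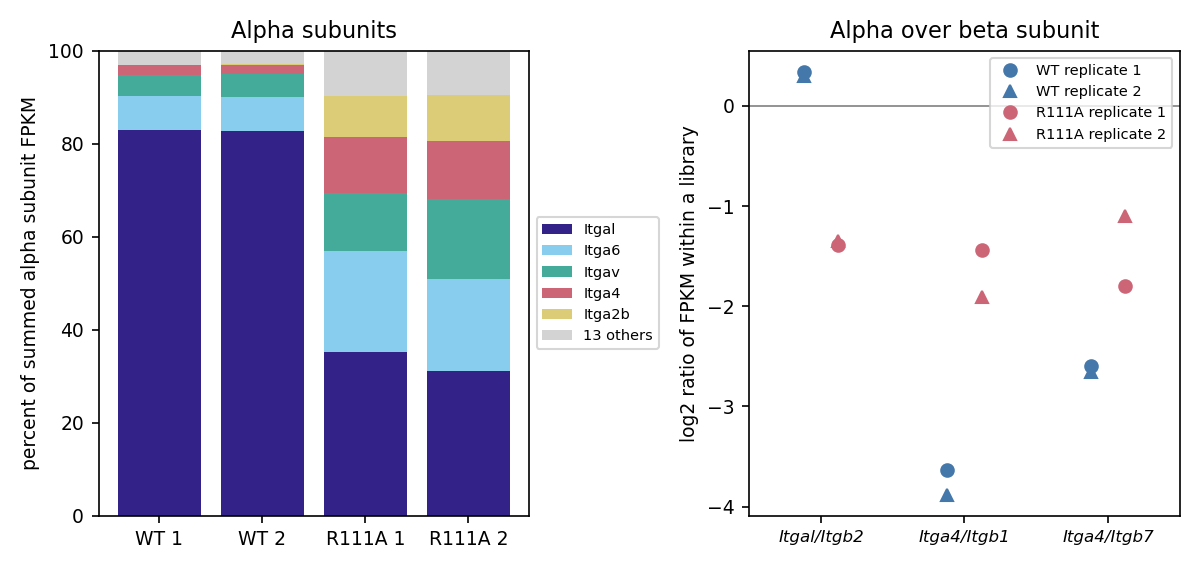
Left, the shares of Itgal, Itga6, Itgav, Itga4 and Itga2b, with all others joined in grey, in the summed FPKM of the 18 alpha subunits in each library, in percent. Right, the log2 ratio of an alpha to a beta subunit within each library, with WT in blue and R111A in red: Itgal falls from 83.0% and 82.8% to 35.3% and 31.2% of the sum, and each of the 3 ratios separates the groups.

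Itgal was the 1 tested alpha subunit that fell. Of 18 alpha subunits, 8 were tested, Itgal and Itga4 among them, and 6 were higher and 1 lower, against 21.2% and 32.1% of all genes. The median was 0.99 beside -0.12 for all genes, or 0.68 beside -0.42 after rescaling to TPM. Of the higher genes, Itga2b and Itga10 reached the filter of 1 FPKM only through R111A, so their place in the count and the median depends on R111A. Itga6, a laminin receptor chain, rose from 11.72 and 10.85 FPKM to 24.13 and 20.35 FPKM. Itgav, the alpha chain of vitronectin receptors, rose from 7.12 and 7.10 FPKM to 14.08 and 17.98 FPKM, and Itga3, another laminin receptor chain, rose from 1.36 and 0.96 FPKM to 4.06 and 3.88 FPKM. Itga5, the fibronectin receptor chain, read 2.05 and 1.90 FPKM in WT and 1.93 and 1.54 FPKM in R111A and was the 1 tested alpha subunit that did not pass. Itga2b, known from platelets, read 0.28 and 0.31 FPKM in WT and 9.92 and 10.24 FPKM in R111A.

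The share of each alpha subunit in the summed alpha FPKM, computed after the values were seen, moved with these changes. The sum itself was 159.96 and 147.78 FPKM in WT and 111.94 and 103.67 FPKM in R111A. Itgal made up 83.0% and 82.8% of it in WT and 35.3% and 31.2% in R111A. Itga4 went from 2.08% and 2.01% to 11.9% and 12.5%, Itga6 from 7.33% and 7.34% to 21.6% and 19.6%, and Itga2b from 0.175% and 0.210% to 8.86% and 9.88%. These are shares of transcript level per length and not of protein at the surface.

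Beta subunits were read in the same way. Of 8 listed, 7 were in the table and 4 were tested, 3 of them among the 10 genes, and 2 were higher and 0 lower, where all genes gave 21.2% and 32.1%, with a median of 0.26 beside -0.12. With TPM 1 was higher and 1 lower. Itgb3, the platelet and vitronectin receptor chain, rose from 1.40 and 1.05 FPKM to 2.4 and 2.05 FPKM, a call that was lost after rescaling to TPM, with quantile scaling and without WT replicate 2. The summed beta FPKM was 169.11 and 163.80 in WT and 189.36 and 162.18 in R111A. In FPKM the groups overlapped in this sum, while the summed alpha FPKM did not overlap. The overlap of the beta sums depends on the scale, because the summed FPKM of all genes was higher in both R111A libraries.

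Some integrin subunits mark other cells, whose markers were read as whole lists. Of the 7 platelet and megakaryocyte markers, all in the table, the summed level was 1.72 and 1.38 FPKM in WT and 12.63 and 12.60 FPKM in R111A, with Itga2b the most abundant, 1.44, 1.07, 2.71 and 2.36 FPKM in the order of the libraries without it, and the defining markers Pf4, Gp1bb and Gp9 were listed at 0 in each library. Of 12 myeloid markers, all in the table, the sum was 2.47 and 1.76 FPKM in WT and 17.55 and 12.71 FPKM in R111A, with Cd68 the most abundant, 0.93 and 0.98 FPKM in WT and 8.66 and 5.90 FPKM in R111A without it, and S100a9 listed at 0. The myeloid integrin chains Itgam and Itgax reached 0.54 and 0.41 FPKM at most. The 8 erythroid markers summed to 0.66 and 0.85 FPKM in WT and 13.23 and 13.25 FPKM in R111A, with Hba-a1 the most abundant, 0 and 0.41 FPKM in WT and 0.97 and 1.51 FPKM in R111A without it, and Hba-a2, Hbb-bs and Slc4a1 listed at 0.

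The B cell, NK cell and endothelial lists were also higher in sum in R111A, unlike the CD8 markers given above. Of 7 B cell markers, 6 were in the table, with sums of 2.15 and 1.01 FPKM in WT and 5.21 and 4.54 FPKM in R111A, and Cd79a was the most abundant. Without Cd79a the B cell sums were 1.83 and 0.77 FPKM in WT and 2.22 and 2.17 FPKM in R111A. The 5 NK cell markers summed to 1.14 and 1.00 FPKM in WT and 7.83 and 5.63 FPKM in R111A, with Eomes the most abundant, and without it 0.26 and 0.20 FPKM in WT and 1.15 and 1.31 FPKM in R111A. The 7 endothelial and stromal markers summed to 5.80 and 5.05 FPKM in WT and 18.65 and 12.66 FPKM in R111A, with Pecam1, which T cells also express, the most abundant and Pdgfra listed at 0, and the other 6 together read 0.09, 0.10, 0.19 and 0.05 FPKM, with no separation of the groups. The 4 regulatory T cell markers, by contrast, summed to 194.96 and 193.56 FPKM in WT and 141.45 and 146.86 FPKM in R111A, with Il2ra the most abundant. Without Il2ra their sums were 54.75 and 57.44 FPKM in WT and 14.15 and 18.25 FPKM in R111A. The part of these cells in the changes of the integrin and adhesion genes was not tested. The study's general sorting method first prepares splenic CD4+ T cells with an untouched-cell bead kit, a step meant to remove other cell types. Whether that kit was used for the sequenced cells is not stated.

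Integrins bind their ligands firmly only after signals inside the cell switch them on. Of 33 genes listed for that switch, 32 were in the table and 29 were tested, and 5 were higher and 5 lower, where 21.2% and 32.1% of all genes were, with a median of -0.15 beside -0.12 for all genes. Rasgrp2, the exchange factor that loads RAP1, rose from 5.57 and 5.29 FPKM to 23.26 and 19.97 FPKM, a log2 fold change of 1.81 with a standard error of 0.14. Skap1, an adaptor that brings RAP1 effectors to the membrane, rose from 22.38 and 23.60 FPKM to 74.33 and 61.72 FPKM. Its partner Fyb, the adaptor ADAP, rose from 19.33 and 17.19 FPKM to 29.61 and 26.73 FPKM, and Lims1, the adaptor PINCH, rose from 21.39 and 20.63 FPKM to 37.10 and 50.71 FPKM. Fyb had a log2 fold change of 0.60, which was 0.28 after rescaling to TPM and then did not pass, nor did it pass without WT replicate 2.

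Of the lower genes on the list, Parvg, a parvin, fell from 54.79 and 55.07 FPKM to 20.58 and 20.67 FPKM, and Fermt3, kindlin-3, which binds beta chain tails, fell from 67.94 and 63.06 FPKM to 39.30 and 28.36 FPKM. Vcl, vinculin, fell from 2.99 and 2.79 FPKM to 1.24 and 1.21 FPKM. Sipa1, which switches RAP1 off, fell from 26.75 and 28.73 FPKM to 19.37 and 12.61 FPKM, a call lost with no filter. The small GTPases themselves did not pass, with Rap1b at 268.88 and 294.18 FPKM in WT and 198.50 and 241.50 FPKM in R111A and Rap1a at 101.20 and 113.13 FPKM against 95.14 and 114.01 FPKM, and neither did the actin regulator Coro1a, at a log2 fold change of -0.34. The counts of this list moved with scaling and with single libraries, as did those of all genes. After rescaling to TPM 3 were higher and 16 lower, beside 13.6% and 51.8% of all genes. Without R111A replicate 1, 13 were lower beside 38.4%, without R111A replicate 2, 9 were higher beside 25.5%, and without WT replicate 2, 3 were higher beside 15.1%.

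Icam1, the ligand of LFA-1 on chr9:21015940-21028814 (NCBI gene 15894), read 17.62 and 18.22 FPKM in WT and 22.75 and 16.24 FPKM in R111A. Both WT values lay between those of R111A, so the groups overlapped. Its log2 fold change was 0.10 with a standard error of 0.17 and an adjusted p of 0.66, 0.21 relative to the median, and it was -0.22 after rescaling to TPM. Selplg, the selectin ligand PSGL-1 on chr5:113817798-113832528 (NCBI gene 20345), read 59.38 and 54.58 FPKM in WT and 93.39 and 62.15 FPKM in R111A. The R111A values were above those of WT but differed 1.5-fold from each other. The log2 fold change of Selplg was 0.41 with a standard error of 0.19 and an adjusted p of 0.096, 0.53 relative to the median, and in the alternatives it ran from 0.08 to 0.70. Without R111A replicate 2 it was 0.70 with an adjusted p of 0.0013, the lowest of a range up to 0.69. It also passed with quantile scaling, at 0.64 and an adjusted p of 0.025, and with the replicate block, at an adjusted p of 0.019.

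Other adhesion receptors of the immunoglobulin and selectin families were measured with them. Of 30 listed, 19 were tested, Icam1 and Selplg among them, and 4 were higher and 5 lower, which is no more than the 21.2% and 32.1% of all genes. The median of 0.22, beside -0.12 for all genes, became -0.11 after rescaling to TPM, where that of all genes was -0.42. Pecam1, an adhesion molecule of leukocytes and endothelium, rose from 5.71 and 4.95 FPKM to 18.46 and 12.61 FPKM. Cd226 and Cd96 bind the same ligand, CD155, and moved in opposite directions. Cd226, the activating receptor DNAM-1, fell from 25.46 and 27.53 FPKM to 1.97 and 3.41 FPKM, a log2 fold change of -2.92 with a standard error of 0.20. Cd96 rose from 20.60 and 19.70 FPKM to 30.70 and 37.37 FPKM. Slamf1, a receptor that binds its own kind on other cells, rose from 111.70 and 109.93 FPKM to 144.28 and 189.65 FPKM, a call lost after rescaling to TPM and without either WT replicate.

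Cd24a, given above, was the fourth gene of these families named as higher. Among those that fell, Cd48, a ligand of CD2 and CD244, went from 73.03 and 72.16 FPKM to 38.43 and 46.27 FPKM. Cd6, a receptor for ALCAM, went from 307.63 and 295.37 FPKM to 216.13 and 188.36 FPKM, a call lost without WT replicate 1, and Icam5, a further LFA-1 ligand that reached the filter only through WT, from 2.58 and 1.80 FPKM to 0.55 and 0.67 FPKM. Apart from Selplg, given above, the most abundant that did not pass were Cd2, Spn, the sialomucin CD43, and Ly9. Their log2 fold changes were 0.18, 0.30 and 0.22. The number higher ran from 3, with TPM or without either WT replicate, to 8, with quantile scaling or without R111A replicate 1, and the number lower from 3 without WT replicate 1 to 7 with TPM. In the same fits 13.6%, 14.9% and 15.1% of all genes were higher with TPM and without WT replicates 1 and 2, 23.6% with quantile scaling and 25.6% without R111A replicate 1, and 19.4% were lower without WT replicate 1 and 51.8% with TPM.

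PSGL-1 binds selectins only when its sugars and tyrosines carry the right modifications. Of 15 genes listed for this, 14 were in the table and 9 were tested, and 3 were higher and 4 lower, beside 21.2% and 32.1% of all genes, with a median of -0.20 beside -0.12. With TPM 2 were higher and 5 lower. Fut7, the fucosyltransferase that completes the selectin ligand, was below the filter at 0.96 and 0.89 FPKM in WT and 0.60 and 0.45 FPKM in R111A. St3gal4 and St3gal6, sialyltransferases that add the same sugar, moved apart. St3gal4 fell from 19.38 and 21.35 FPKM to 9.67 and 9.94 FPKM, while St3gal6, which reached the filter only through R111A, rose from 0.92 and 0.69 FPKM to 3.01 and 1.93 FPKM. Tpst1, a tyrosine sulfotransferase, fell from 16.17 and 15.11 FPKM to 8.95 and 8.41 FPKM, while Tpst2, which catalyses the same reaction, read 34.07 and 35.55 FPKM in WT and 46.41 and 39.45 FPKM in R111A and did not pass.

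The rest of that list followed no common direction. Chst2, a sugar sulfotransferase, fell from 23.91 and 25.01 FPKM to 14.09 and 10.97 FPKM. C1galt1, which builds the core of O-linked sugars, fell from 14.86 and 15.29 FPKM to 7.76 and 10.81 FPKM, whereas its chaperone C1galt1c1 rose from 16.44 and 19.77 FPKM to 25.60 and 28.09 FPKM. B4galt1, a galactosyltransferase, rose from 17.23 and 16.40 FPKM to 31.11 and 27.20 FPKM. The GDP-fucose transporter Slc35c1 did not pass, at a log2 fold change of -0.20. The call of C1galt1c1 was lost after rescaling to TPM, that of C1galt1 with no filter, and both without either WT replicate.

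**Figure D4:**
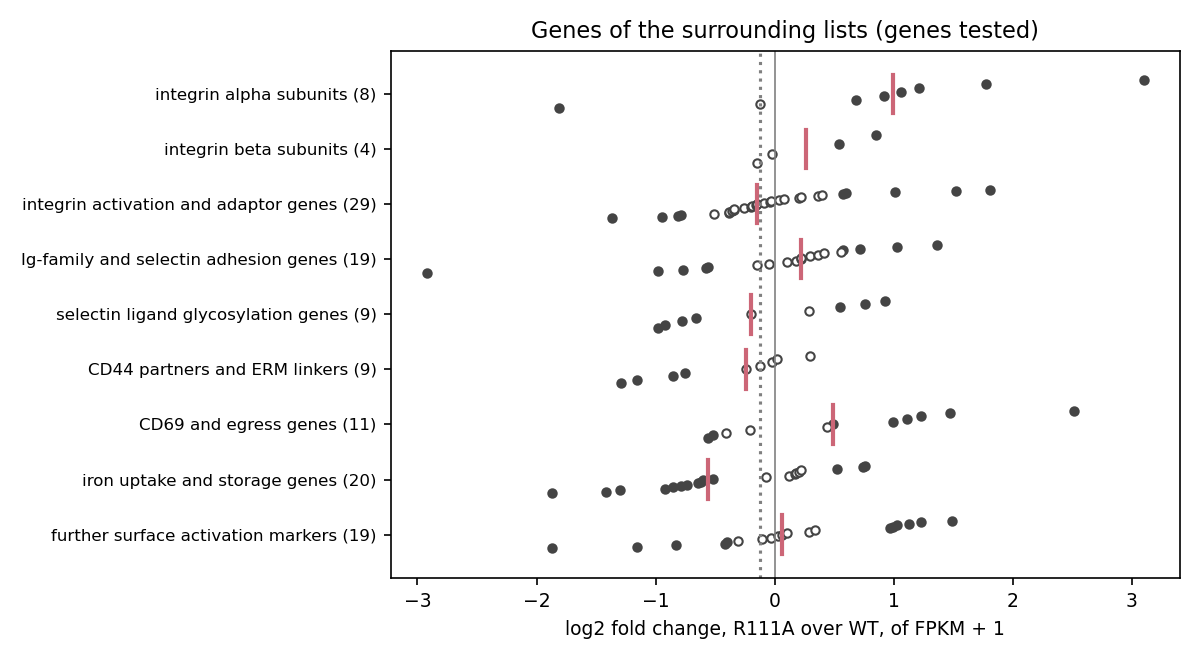
Log2 fold change of each tested gene of the 9 lists, R111A over WT, of FPKM + 1, with filled points for an adjusted p under 0.05, a red bar at the median of each list and a dotted line at the median of all genes tested, -0.12. List medians run from -0.56 for iron genes to 0.99 for integrin alpha subunits. The alpha median includes 2 genes that reached the filter only through R111A. After rescaling to TPM the medians of the beta subunits, the immunoglobulin and selectin family and the further surface markers are at or below 0.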

How the data were processed

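Poly(A) RNA of 2 WT and 2 R111A samples was sequenced. According to the submitters' processing notes, the authors aligned reads to mm10 with Bowtie2 2.4.4 and quantified genes with RSEM 1.2.28, and the deposited table holds FPKM per gene. The authors used DESeq2 for their own comparison, which is not used here. Read depth per library is unknown. Steps in low values, from 0.1 to 0.6 FPKM, put WT replicate 1 at 1.19 times the depth of R111A replicate 2 and the other pairs closer.

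The 9831 of 16142 genes whose mean reached 1 FPKM were tested on log2(FPKM + 1) with limma 3.58.1 in R 4.3.3, with a trend in the variance prior, two-sided, and Benjamini-Hochberg adjustment over all genes tested. A call needed an adjusted p under 0.05 and a 2-fold change. Ratios of subunits were compared by exact permutation. Of each list, up to 4 genes with the largest change in each direction past the adjusted p were named, with up to 3 abundant genes that did not pass, beside the 10 genes and Zc3h12a. Fut7, Itgam, Itgax and the markers fall outside that rule, and Fut7 was chosen after its values were seen. The genes and lists were chosen with earlier results of these data known, and 1 gene is not reported here. Nothing says that replicates came from separate animals, so p-values measure the spread between these samples, which may be technical. Alternatives were other pseudocounts and filters, TPM, median-of-ratios and quantile scaling, other variance settings, a replicate block and leaving out each library. Gene positions are from RefSeq, GRCm38.p6.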

Additional observations from a re-analysis of the deposited data

How the results depend on the processing

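Cd44, Cd69, Itgal, Itga4 and Tfrc kept their direction and their side of the adjusted p of 0.05 in each of 14 alternatives, while the 2-fold change was missed by Cd69 in 2 and by Cd44 in 1. Of 140 comparisons over the 10 genes, 125 gave the same result, 8 changed direction, 6 passed where the reported fit did not, and 1 no longer passed, which was Itgb7 with no filter. Of 49 genes past the adjusted p that the naming rule chose from the lists, 28 kept it in each of the 14 alternatives. A further 6 kept it where tested but fell below the filter of 5 FPKM, and 0 of the 49 changed direction. Other genes named here, such as Zc3h12a, Ly6c2 and Foxp3, are outside this count. Directions changed for Icam1 with TPM, at -0.22, for Itgb1 with median-of-ratios, at 0.07, and quantile scaling, at 0.15, and for Itgb2 with quantile scaling, at 0.08, and leaving out a library gave ranges of -0.13 to 0.33 for Icam1, -0.23 to 0.19 for Itgb1 and -0.31 to 0.02 for Itgb2. The cause was not tested.

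Genes called higher, 838 in the reported fit, numbered 386 with a pseudocount of 5 FPKM, 521 with a filter of 5 FPKM, which tests fewer genes, and 2088 by adjusted p alone. Genes called lower, 820 in the reported fit, numbered 402 with that pseudocount, 1749 with TPM and 3152 by adjusted p alone. Itgb2 without R111A replicate 1 and Icam1 without R111A replicate 2 also passed. A library left alone in its group was assumed to vary like the other group.

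With a replicate block 841 genes were called higher and 821 lower, and 7 of the 10 genes passed the adjusted p, Selplg being added. Deviations of WT replicate 1 and R111A replicate 1 from their group means had a correlation of 0.111 over the genes tested. With 2 samples per group, the deviations of replicates 2 mirror these and add nothing. That is too little to show a pairing, and no label says what a shared number marks. In that fit and in those without a WT replicate, limma pooled the variance fully over genes. With the block, the adjusted p values of the genes that passed in the reported fit became very small. Without a WT replicate the adjusted p values moved in both directions. Depth limits genes below 1 FPKM, which were not tested.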
